A study of Danio rerio with 24 samples.

Results

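The AP-1 genes of the Fos and Jun families were followed through caudal fin regeneration in adult and larval zebrafish (Danio rerio). Members were all probe sets of the array with exactly 1 annotated gene symbol beginning with fos or jun, which gave 12 of the 15617 probe sets in the table. They stand for 6 of the 8793 genes that the annotation names: the Fos genes fosab with 4 probe sets, fosl1b with 1 and fosl2 with 3, and the Jun genes jun with 2, junba with 1 and junbb with 1. The RefSeq gene table lists 12 zebrafish fos and jun genes. The 6 without such a probe set, fosaa, fosb, fosl1a, fosl2l, jund and june, were not analysed here.

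AP-1 is a transcription factor made of a pair of basic leucine zipper proteins. Jun proteins can pair with each other or with Fos proteins, whereas Fos proteins need a Jun partner to bind DNA well. Several Fos and Jun genes are classic early response genes, transcribed within minutes of growth factor, stress or wound signals that reach them through MAP kinases, and JunB proteins are known to be induced in the regenerating zebrafish fin.

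RNA from 24 fin samples was hybridised to Affymetrix zebrafish arrays, in 8 groups of 3 arrays, all of the AB strain. The adult groups were regenerating fin of adult males sampled 1, 3 or 5 days after amputation (days post amputation, dpa) from fish injected with a liposome vehicle, and unamputated fin, for which no vehicle is stated. The larval groups were regenerating fin at 1, 2 and 3 dpa from larvae amputated at 2 days post fertilization, and unamputated fin taken at that same age. DMSO vehicle was given to the larvae of 2 and 3 dpa, and none is stated for the larvae of 1 dpa or the unamputated ones. An adult sample pooled 10 fish and used 2.5 µg of RNA with a one-cycle labelling kit, whereas a larval sample pooled 150 fins and used 100 ng with a two-cycle kit. Age, kit and RNA input therefore cannot be told apart. Against unamputated fin, vehicle and amputation cannot be told apart in the adults or in larvae at 2 and 3 dpa. Sample titles of those same regenerating groups name an adult and larval fin study, and titles of unamputated fin and larval 1 dpa do not. What this marks is not stated, and it cannot be told apart from amputation there. In larvae a later day is also an older animal, and unamputated fin was taken only at the age of amputation. Amputation and the age gained since then therefore cannot be told apart in larval changes against unamputated fin.

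The deposited values are ratios: each probe set was divided by a reference of its own, and each of the 12 member probe sets reads exactly 1 on 1 array. Ratios can be compared between arrays for 1 probe set, but not between probe sets or genes, and whether a signal was above background is not known from them. Changes are given as log2 changes with standard errors from limma, fitted over 15502 probe sets that are not controls. A probe set was called higher or lower at a Benjamini-Hochberg adjusted p under 0.05 with a change of at least 2-fold, and each p measures the spread between pooled samples. Fewer cells of a type and less RNA per cell cannot be told apart in such bulk samples.

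Arrays of 1 group correlated at r = 0.793 to 0.939 over all probe sets, except at larval 3 dpa, where r was 0.629 to 0.808. Larval 3 dpa replicate 3 lay below its group mean for 11 of the 11 members other than fosl1b (median deviation -0.78 on the log2 scale), adult 1 dpa replicate e for 9 of 11 (-0.54) and adult unamputated replicate 3 for 10 of 11 (-0.40). In adults hybridisation control probe sets averaged -1.14 to -0.74 on the 9 regenerating arrays, against 0.09 to 0.85 on the 3 unamputated arrays. The part of that shift in the adult results was not tested.

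**Figure D1:**
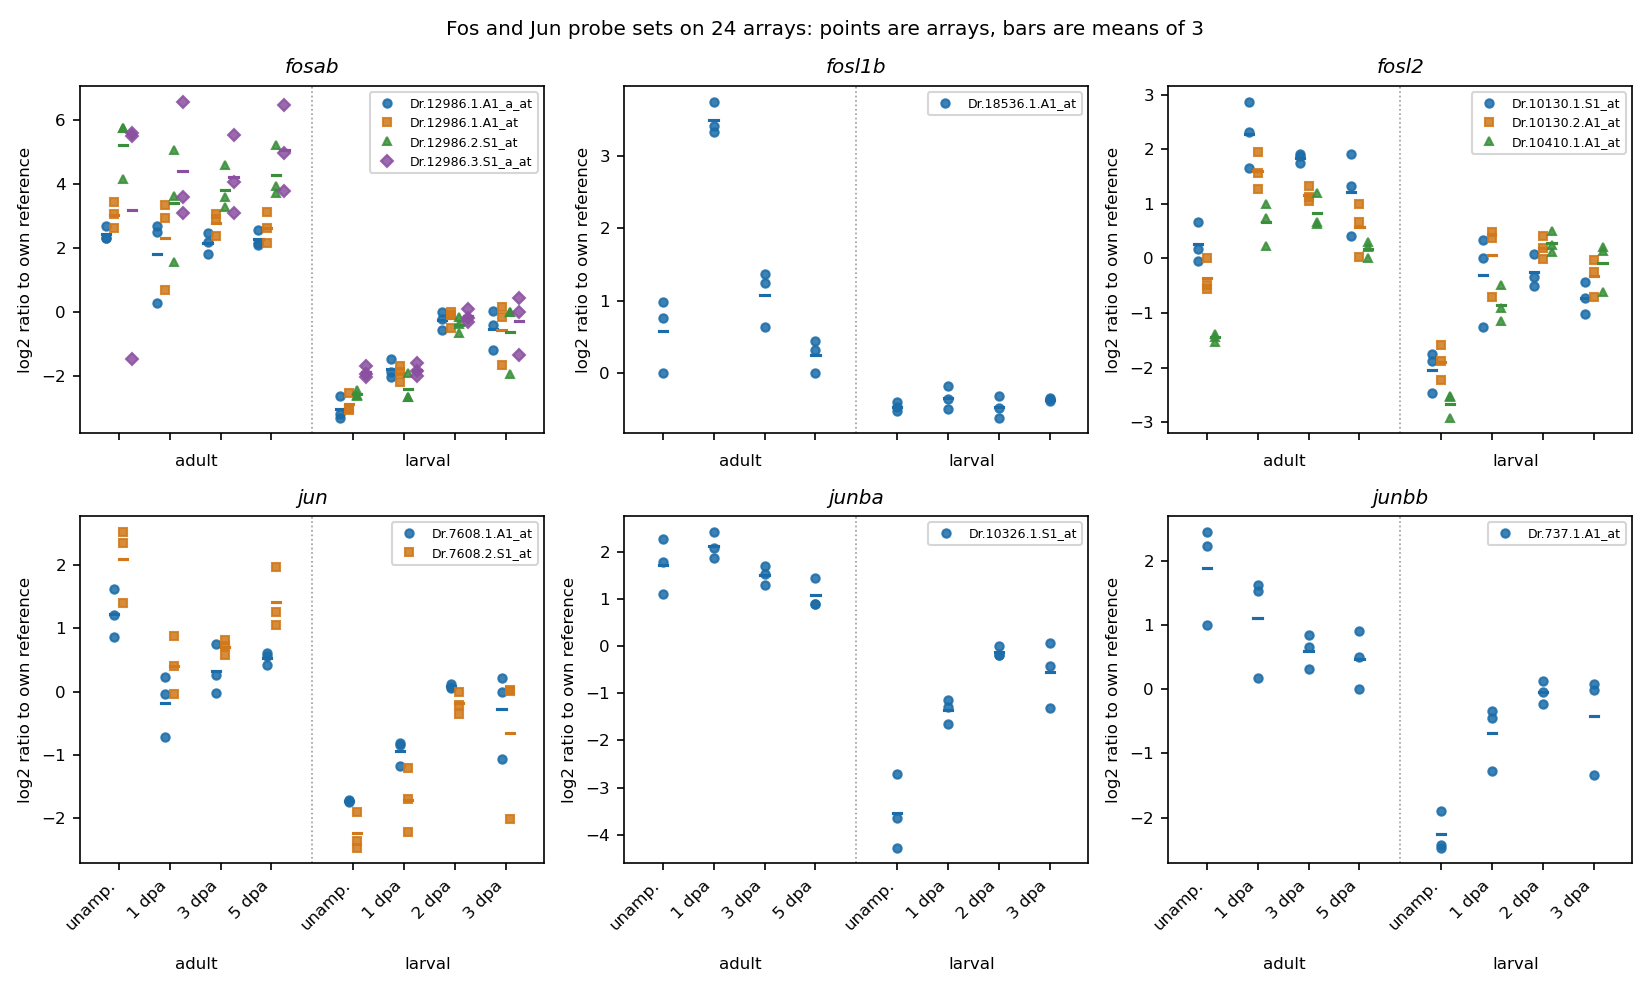
Log2 ratio (vertical axis) of each Fos and Jun probe set on each of the 24 arrays, grouped by adult and larval fin and by day (horizontal axis). Points are arrays, short bars are means of 3 arrays and marker shapes are the probe sets of 1 gene. The adult 1 dpa arrays of fosl1b stand apart from the other adult arrays, and the larval arrays of fosab, jun, junba and junbb climb after amputation.

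In adult fin, the Fos relatives fosl1b and fosl2 rose after amputation while jun fell. A later fall of junbb was called at 3 and 5 dpa, but those calls were lost under several alternatives. At 1 dpa 4 of the 12 member probe sets were called higher, from 2 genes, and 2 lower, from 1 gene. Among all probe sets tested 8.68% were called higher and 7.4% lower. At 3 dpa 3 were called higher, all of fosl2 (8.1% of all), and 2 lower, from 2 genes (6.19%). At 5 dpa 1 was called higher (7.01%) and 1 lower (4.46%). The median change of the 12 was -0.10, -0.24 and -0.37 at 1, 3 and 5 dpa, with members moving in both directions, against -0.17, -0.18 and -0.17 over all probe sets. Of 22 probe sets marking fin mesenchyme and bone, 4 were called higher and 7 lower at 1 dpa, 14 and 1 at 3 dpa and 15 and 0 at 5 dpa, and their median log2 ratio on an array was 0.04 to 0.22 at 3 dpa, against -1.07 to -0.81 in unamputated adult fin. Of 16 leukocyte probe sets, 4, 2 and 3 were called higher and 0 lower. The part of these markers in the member results was not tested.

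The largest adult change belonged to fosl1b, a relative of mammalian FOSL1 (Fra-1), and it was confined to 1 dpa among the days tested. Its ratios were 1.70, 1.00 and 1.98 in unamputated adult fin, 10.0, 13.4 and 10.6 at 1 dpa, 2.57, 2.37 and 1.55 at 3 dpa and 1.24, 1 and 1.36 at 5 dpa. All 3 arrays of 1 dpa lay above every other adult array, and the 3 dpa arrays overlapped the unamputated ones. The change at 1 dpa was 2.91 ± 0.27 (SE; 7.54-fold; limma adjusted p = 0.00012), or 3.09 relative to the median probe set. At 3 dpa it was 0.50 ± 0.27 (adjusted p = 0.16) and at 5 dpa -0.33 ± 0.27 (adjusted p = 0.35). The step between those days was called as well: fosl1b fell by 2.42 ± 0.27 at 3 dpa relative to 1 dpa (adjusted p = 0.001). It was the only member called in that step, where 0.393% of all probe sets were called lower.

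The fosl2 gene, counterpart of mammalian FOSL2 (Fra-2), rose at 1 and 3 dpa in adults by all 3 of its probe sets. For Dr.10410.1.A1_at the ratios were 0.348, 0.370 and 0.384 in unamputated adult fin, 1.17, 2.00 and 1.68 at 1 dpa, 1.56, 1.59 and 2.29 at 3 dpa and 1, 1.16 and 1.23 at 5 dpa. Every regenerating array of this probe set lay above every unamputated one. Its change was 2.11 ± 0.21 at 1 dpa, 2.28 ± 0.21 at 3 dpa and 1.62 ± 0.21 at 5 dpa (limma adjusted p = 0.00016, 9.5e-05 and 0.00076).

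The other fosl2 probe sets, Dr.10130.1.S1_at and Dr.10130.2.A1_at, gave 2.02 and 1.95 at 1 dpa and 1.58 and 1.52 at 3 dpa, all 4 called. At 5 dpa they gave 0.95 ± 0.38 and 0.93 ± 0.26, below the 2-fold minimum (adjusted p = 0.076 and 0.022). Neither was called at 5 dpa with all arrays, but both were without adult 5 dpa replicate a (1.36 and 1.19), and Dr.10130.2.A1_at also without adult unamputated replicate 2 (1.1). Dr.10130.2.A1_at was called at 5 dpa after each array was centred on its median (1.07), and both after quantile normalization (1.03 and 1.04).

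The 4 probe sets of fosab, counterpart of mammalian FOS, were not called on any adult day and differed in direction. At 1 dpa, Dr.12986.2.S1_at gave -1.80 ± 0.82 (adjusted p = 0.093), Dr.12986.1.A1_a_at -0.60 ± 0.52 and Dr.12986.1.A1_at -0.72 ± 0.59, whereas Dr.12986.3.S1_a_at gave 1.22 ± 1.74. The adult arrays of this gene were widely spread: Dr.12986.2.S1_at had ratios of 12.3, 33.2 and 2.94 at 1 dpa, against 54.0, 53.5 and 17.8 in unamputated fin. Replicate e was the lowest at 1 dpa and replicate 3 the lowest of the unamputated arrays, and the groups overlapped. The positive sign of Dr.12986.3.S1_a_at rested on 1 array. Adult unamputated replicate 3 had a ratio of 0.360 there, against 47.8 and 44.8 on the other unamputated arrays, and without it the changes were -1.12, -1.31 and -0.47 at 1, 3 and 5 dpa.

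Without adult 1 dpa replicate e, Dr.12986.1.A1_a_at and Dr.12986.1.A1_at turned to 0.17 and 0.10 at 1 dpa, and without replicate d Dr.12986.2.S1_at was called lower (-2.62, adjusted p = 0.026). Dr.12986.1.A1_a_at and Dr.12986.1.A1_at carry the same source sequence accession in the annotation, so they are not separate evidence.

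The jun gene, counterpart of mammalian JUN, whose product is a main partner of Fos proteins, moved opposite to fosl2 in adult fin. Its probe set Dr.7608.2.S1_at had ratios of 5.09, 5.74 and 2.64 in unamputated adult fin, 1.32, 1.83 and 0.968 at 1 dpa, 1.49, 1.65 and 1.76 at 3 dpa and 2.38, 2.07 and 3.89 at 5 dpa. The arrays of 1 and 3 dpa lay below all unamputated arrays, and those of 5 dpa overlapped them. Dr.7608.2.S1_at fell by 1.68 ± 0.33 at 1 dpa and by 1.39 ± 0.33 at 3 dpa (limma adjusted p = 0.0033 and 0.0088), with -0.67 ± 0.33 at 5 dpa (adjusted p = 0.14).

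The second jun probe set, Dr.7608.1.A1_at, fell by 1.40 ± 0.28 at 1 dpa (adjusted p = 0.0031). It gave -0.90 ± 0.28 at 3 dpa, with an adjusted p of 0.025 but less than a 2-fold change, and -0.70 ± 0.28 at 5 dpa (adjusted p = 0.074). Relative to the median probe set the changes at 1 dpa were -1.23 and -1.51 for Dr.7608.1.A1_at and Dr.7608.2.S1_at. Without adult unamputated replicate 3 or adult 3 dpa replicate c, Dr.7608.1.A1_at was also called at 3 dpa (-1.08 and -1.11), and without that unamputated array Dr.7608.2.S1_at was called at 5 dpa (-1.01).

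Of the JunB genes, which encode Jun proteins that also pair with Fos, junbb fell in adults and junba was not called. For junbb the ratios were 5.47, 4.68 and 2.00 in unamputated adult fin, 3.07, 2.89 and 1.13 at 1 dpa, 1.79, 1.24 and 1.57 at 3 dpa and 1, 1.41 and 1.88 at 5 dpa. The arrays of 3 and 5 dpa lay below all unamputated arrays, while those of 1 dpa overlapped them. The change was -0.78 ± 0.46 at 1 dpa (adjusted p = 0.18), and junbb fell by 1.29 ± 0.46 at 3 dpa and by 1.42 ± 0.46 at 5 dpa (adjusted p = 0.042 and 0.037).

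Those junbb calls were lost under several alternatives. With each array centred on its median the changes were -1.15 and -1.28 and neither was called (adjusted p up to 0.076), which left 3 members higher and 1 lower at 3 dpa and 2 higher and 0 lower at 5 dpa. Quantile normalization left 3 members higher and 1 lower at both days. It lost the junbb call at 3 dpa (-1.16, limma adjusted p = 0.061), but at 5 dpa the member still called lower was junbb. The call at 3 dpa was also lost without adult unamputated replicate 1 or 2 or without replicate a, b or c of 3 dpa (-1.41 to -1.01), and that at 5 dpa without adult unamputated replicate 1 or 2 or replicate a or b of 5 dpa (-1.43 to -1.14). Without adult unamputated replicate 3, junbb was called lower at 1 dpa too (-1.23).

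The other JunB gene, junba, was not called in adults, with changes of 0.39 ± 0.28, -0.22 ± 0.28 and -0.64 ± 0.28 at 1, 3 and 5 dpa. Its ratios were 4.83, 3.46 and 2.15 in unamputated adult fin, 3.64, 5.34 and 4.20 at 1 dpa, 2.86, 2.44 and 3.26 at 3 dpa and 1.86, 1.87 and 2.72 at 5 dpa. Each regenerating group overlapped the unamputated arrays.

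Between 5 and 3 dpa no adult member was called by limma, where 0.0516% of all probe sets were. At an unadjusted limma p under 0.05 there were 3 of the 12 members, all lower at 5 dpa, where 10.6% of all probe sets passed. The member changes ran from -0.83 to 0.84.

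**Figure D2:**
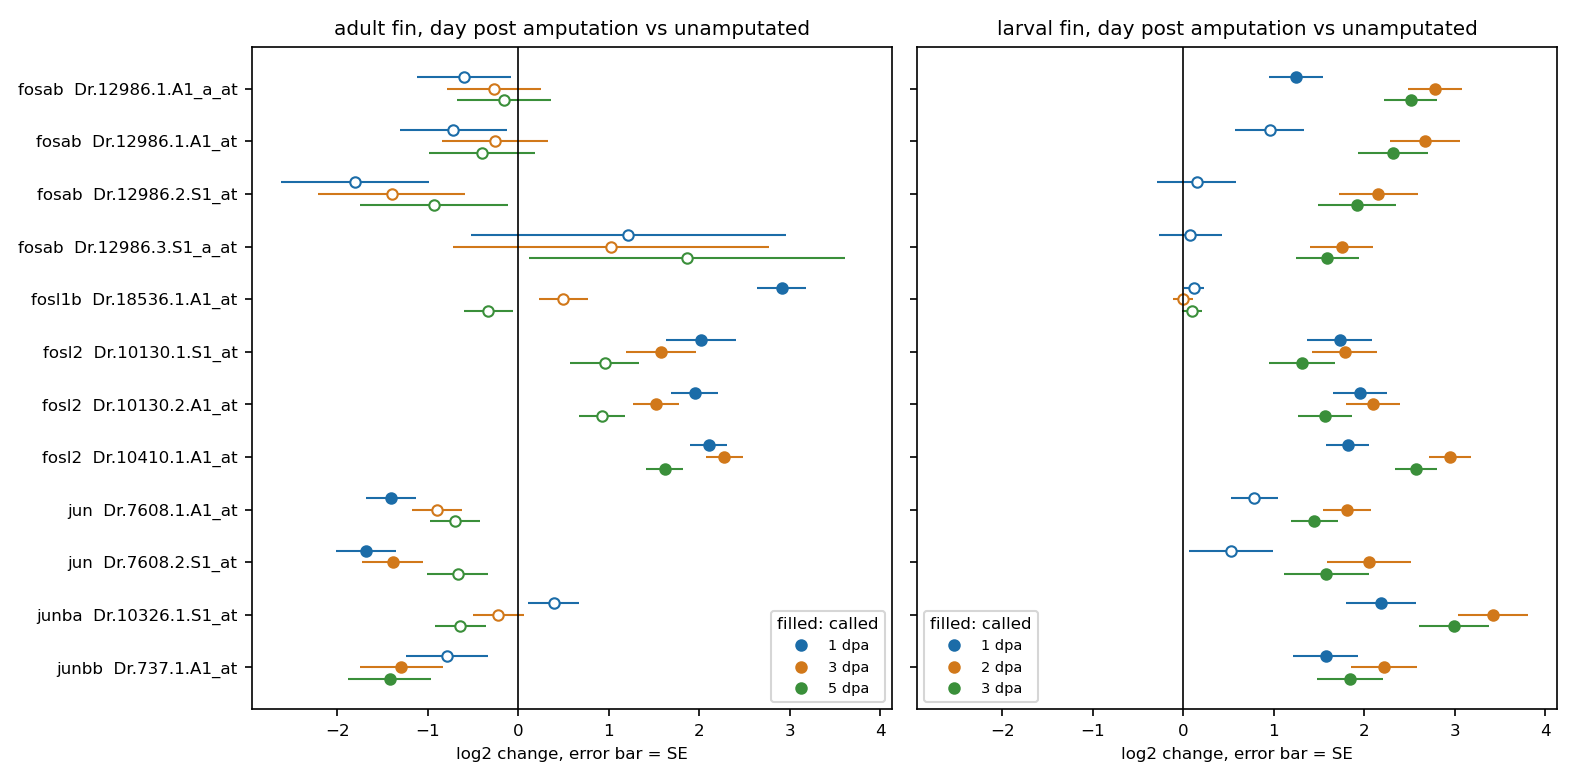
Log2 change of each member probe set (rows) at each day against unamputated fin of the same age, adult on the left and larval on the right. Bars are standard errors and filled points are calls. In adults fosl2 at every day and fosl1b at 1 dpa lie right of 0 and jun left of it, while in larvae 11 of the 12 probe sets lie right of 0 with calls at 2 and 3 dpa.

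In larval fin, fosab, fosl2, jun, junba and junbb rose after amputation and fosl1b was not called. At 1 dpa 6 of the 12 probe sets were called higher, from 4 genes, where 2.43% of all probe sets were called higher. At 2 and 3 dpa 11 were called higher, from 5 genes, where the shares of all probe sets were 6.23% and 5.08%. None was called lower, where 1.58%, 6.32% and 5.51% of all probe sets were at 1, 2 and 3 dpa. The median change of the 12 was 1.1, 2.13 and 1.72 at those days, against medians of -0.03, -0.02 and 0.00 over all probe sets.

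Some cell type markers also moved in larvae. Of 26 skeletal muscle probe sets, 0 were called higher and 0 lower at 1 dpa (median change 0.62), and 21 were called lower at 2 dpa and 21 at 3 dpa (median change -4.88 and -5.05). Their median log2 ratio on an array was 2.84 to 6.09 in unamputated larvae, 4.72 to 6.79 at 1 dpa, -0.03 to 0.23 at 2 dpa and -0.19 to -0.02 at 3 dpa. Of 10 erythrocyte probe sets, 8 were called lower at each of 2 and 3 dpa, and of 16 leukocyte probe sets 8, 4 and 3 were called higher and 0, 1 and 1 lower over the 3 days. The leukocyte median log2 ratio on an array was -0.21 to 0.55 at 1 dpa, against -0.92 to -0.54 in unamputated larvae. Of 20 epidermis probe sets, 2, 1 and 0 were called higher and 4, 8 and 5 lower at 1, 2 and 3 dpa (median change -0.34, -0.25 and -0.50), and of 15 for neurons and glia 2, 0 and 0 were higher and 0, 3 and 3 lower. Of 22 for fin mesenchyme and bone, 1, 3 and 2 were called higher and 2, 1 and 1 lower at 1, 2 and 3 dpa. The part of these shifts in the member results was not tested.

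In larvae fosl2 rose from the first day on, on all 3 probe sets. Dr.10410.1.A1_at had ratios of 0.174, 0.133 and 0.171 in unamputated larval fin, 0.451, 0.534 and 0.715 at 1 dpa, 1.42, 1.09 and 1.18 at 2 dpa and 1.09, 1.16 and 0.652 at 3 dpa. No regenerating array overlapped the unamputated ones. The changes were 1.82 ± 0.24, 2.95 ± 0.24 and 2.57 ± 0.24 at 1, 2 and 3 dpa (limma adjusted p = 0.00081, 8.2e-06 and 2.1e-05), and the call at 1 dpa was lost with log2(value + 0.25), at 0.99.

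The other fosl2 probe sets stayed nearer to 1 level through the larval days. Dr.10130.1.S1_at gave 1.73 ± 0.36, 1.78 ± 0.36 and 1.31 ± 0.36 and Dr.10130.2.A1_at gave 1.95 ± 0.30, 2.09 ± 0.30 and 1.57 ± 0.30 at 1, 2 and 3 dpa, all called. The call of Dr.10130.1.S1_at at 3 dpa was lost without larval unamputated replicate 2 or 3 dpa replicate 1 (1.1 and 1.17), with quantile normalization (0.98, adjusted p = 0.079) and with log2(value + 0.25) (0.79).

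Of the 4 fosab probe sets, 1 was called at 1 dpa and all 4 at 2 and 3 dpa in larvae. Dr.12986.1.A1_a_at had ratios of 0.162, 0.101 and 0.110 in unamputated larval fin, 0.361, 0.274 and 0.245 at 1 dpa, 1, 0.866 and 0.679 at 2 dpa and 1.02, 0.753 and 0.439 at 3 dpa. The groups of 1, 2 and 3 dpa each lay above the unamputated arrays. It changed by 1.25 ± 0.30 at 1 dpa, 2.78 ± 0.30 at 2 dpa and 2.51 ± 0.30 at 3 dpa (limma adjusted p = 0.018, 5.1e-05 and 0.00011).

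At 1 dpa the fosab probe sets Dr.12986.1.A1_at, Dr.12986.2.S1_at and Dr.12986.3.S1_a_at gave 0.96 ± 0.38, 0.15 ± 0.43 and 0.08 ± 0.35, none called, and quantile normalization turned them to -0.12, -1.22 and -0.79. At 2 dpa the same 3 probe sets rose by 2.67, 2.16 and 1.75, and at 3 dpa by 2.32, 1.92 and 1.59. The call of Dr.12986.1.A1_a_at at 1 dpa was lost without larval unamputated replicate 2 or 3 or without 1 dpa replicate 1 (1.09 to 1.17, adjusted p up to 0.069), with quantile normalization (0.32, adjusted p = 0.52) and with log2(value + 0.25) (0.53, adjusted p = 0.1).

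On the ratios as deposited, junba had the largest larval change of the members at each day. With log2(value + 0.25) it ranked below fosl2 at each day. The effect of adding 0.25 depends on each probe set's own reference, so that second order does not compare the genes. Its ratios were 0.152, 0.0519 and 0.0799 in unamputated larval fin, 0.317, 0.456 and 0.409 at 1 dpa, 1, 0.883 and 0.879 at 2 dpa and 1.05, 0.750 and 0.400 at 3 dpa. All regenerating arrays lay above the unamputated ones, and the 2 dpa arrays lay above those of 1 dpa. junba rose by 2.18 ± 0.39, 3.42 ± 0.39 and 2.99 ± 0.39 at 1, 2 and 3 dpa (4.55-, 10.7- and 7.93-fold; limma adjusted p = 0.0042, 7.7e-05 and 0.00021). With log2(value + 0.25) the changes were 0.91, 1.77 and 1.47, against 0.99, 1.85 and 1.55 for Dr.10410.1.A1_at of fosl2. The junba call at 1 dpa was lost with that pseudocount and with quantile normalization (1.32, adjusted p = 0.057).

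The junbb ratios in larvae were 0.270, 0.181 and 0.187 in unamputated fin, 0.414, 0.793 and 0.732 at 1 dpa, 1.1, 0.976 and 0.857 at 2 dpa and 0.996, 1.06 and 0.396 at 3 dpa. Here too no regenerating array overlapped the unamputated ones. The changes were 1.57 ± 0.36, 2.22 ± 0.36 and 1.84 ± 0.36 (adjusted p = 0.016, 0.00081 and 0.003). The call at 1 dpa was lost without larval unamputated replicate 2 or 3 or 1 dpa replicate 2 or 3 (1.40 to 1.49, adjusted p up to 0.063), with quantile normalization (1.16, adjusted p = 0.069) and with log2(value + 0.25) (0.93).

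In larvae jun was called from 2 dpa on. Dr.7608.1.A1_at had ratios of 0.306, 0.3 and 0.3 in unamputated larval fin, 0.571, 0.556 and 0.444 at 1 dpa, 1.05, 1.04 and 1.08 at 2 dpa and 1.16, 1 and 0.478 at 3 dpa. All its regenerating arrays lay above the unamputated ones, but the change at 1 dpa, 0.79 ± 0.26, was not called (adjusted p = 0.072). It was 1.81 ± 0.26 at 2 dpa and 1.45 ± 0.26 at 3 dpa (adjusted p = 0.00037 and 0.0018).

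For Dr.7608.2.S1_at, the second jun probe set, the larval changes were 0.53 ± 0.47, 2.05 ± 0.47 and 1.58 ± 0.47 at 1, 2 and 3 dpa (adjusted p = 0.54, 0.0061 and 0.026). The 3 dpa arrays overlapped the unamputated ones through replicate 3, at 0.249. That call was lost without larval unamputated replicate 2 or 3 or 3 dpa replicate 1 or 2 (1.25 to 1.52, adjusted p up to 0.098), with quantile normalization (1.22, adjusted p = 0.1), with log2(value + 0.25) (1.00, just under 2-fold) and in a fit of only the groups compared (adjusted p = 0.087). Dr.7608.1.A1_at also lost its call at 3 dpa with log2(value + 0.25), at 0.98.

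In contrast to its adult values, fosl1b stayed between 0.652 and 0.886 on all 12 larval arrays. Its changes were 0.12 ± 0.11, -0.01 ± 0.11 and 0.10 ± 0.11 at 1, 2 and 3 dpa, with adjusted p of 0.55 to 0.98, and its larval group means spanned 0.13 on the log2 scale against 3.24 among the adult groups. Since ratios do not show whether a signal was above background, these values do not tell a steady transcript level from a level too low to be measured.

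Within the larval course, 8 probe sets were called higher at 2 dpa than at 1 dpa, where 3.6% of all probe sets were: all 4 of fosab, both of jun, junba and Dr.10410.1.A1_at of fosl2. The largest was Dr.12986.2.S1_at of fosab, by 2.01 ± 0.43 (limma adjusted p = 0.0067). The count was 5 to 6 with 1 array left out, and 5 without larval 1 dpa replicate 3. The junba call of this step, 1.24 ± 0.39 (adjusted p = 0.04), was lost without any 1 of the 6 arrays compared (1.09 to 1.35), that of Dr.7608.2.S1_at of jun without 1 dpa replicate 2 or 3 or any array of 2 dpa, that of Dr.7608.1.A1_at without 1 dpa replicate 3, and that of Dr.10410.1.A1_at without 1 dpa replicate 1. With log2(value + 0.25) junba, Dr.10410.1.A1_at and Dr.7608.1.A1_at fell under 2-fold (0.87, 0.86 and 0.76). The DMSO vehicle, the difference in sample titles and the fall of the muscle markers fall between these same groups.

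No member was called between 2 and 3 dpa, where 0.297% of all probe sets were. None had an unadjusted limma p under 0.05, where 11.3% of all probe sets did. Of the 12, 11 were lower at 3 dpa, with a median of -0.37. Without larval 3 dpa replicate 3 the median was 0.07 and 8 of the 12 were higher. Against unamputated fin, leaving out that array put the median of the 12 at 3 dpa at 2.28, against 1.72 with all arrays.

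Set directly against each other, the adult change was lower than the larval change for jun, junba and junbb at both shared days and for 1 fosab probe set at 1 dpa and 3 of 4 at 3 dpa, and higher for fosl1b at 1 dpa. This difference, adult minus larval, was tested at the shared days, 1 and 3 dpa, over all 24 arrays. Vehicle differs within it: liposomes in the regenerating adults, none stated for larvae of 1 dpa and DMSO for those of 3 dpa. Age and vehicle therefore cannot be told apart in it. The larval change in it also holds the age that the regenerating larvae gained after amputation. At 1 dpa the difference in sample titles also lies within the adult change and not the larval one. At 1 dpa 1 member was called higher, where 8.92% of all probe sets were, and 5 lower, from 4 genes (9.01%). At 3 dpa 7 were called lower, from 4 genes (10.6% of all), and 0 higher. The median of the 12 was -1.73 at 1 dpa and -2.46 at 3 dpa, against -0.13 and -0.18 over all probe sets.

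At 1 dpa fosl1b differed by 2.79 ± 0.30 (limma adjusted p = 4.1e-06). The larval fosl1b values in that difference do not tell a steady level from a level too low to be measured. At the same day jun differed by -2.19 ± 0.40 and -2.21 ± 0.61, junba by -1.79 ± 0.51 and junbb by -2.36 ± 0.61. Dr.12986.1.A1_a_at of fosab differed by -1.85 ± 0.62 (adjusted p = 0.031). The fosab call at 1 dpa was lost without larval unamputated replicate 2 or 3, larval 1 dpa replicate 1, adult unamputated replicate 1 or adult 1 dpa replicate e (-1.78 to -1.08). Without adult 1 dpa replicate d, Dr.12986.1.A1_at and Dr.12986.2.S1_at of fosab were called as well (-2.18 and -2.77), and the count of members called was then 8. Quantile normalization left 1 call higher and 2 lower at 1 dpa.

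Other calls of the difference at 1 dpa depended on the scale. The junba difference was -0.54 with log2(value + 0.25) (adjusted p = 0.25) and -1.52 with quantile normalization (adjusted p = 0.08), neither called. The difference of Dr.12986.1.A1_a_at of fosab was -1.07 with log2(value + 0.25) and -0.94 with quantile normalization (adjusted p = 0.13 and 0.25), and it was not called in a fit of only the groups compared (adjusted p = 0.081). That of Dr.7608.2.S1_at of jun was -1.03 with quantile normalization (adjusted p = 0.37). The fosab probe set Dr.12986.3.S1_a_at gave 1.14 ± 1.85 at 1 dpa and -0.57 ± 1.85 at 3 dpa, not called at either day.

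At 3 dpa junba differed by -3.21 ± 0.51 (adjusted p = 8.1e-05) and junbb by -3.13 ± 0.61 (adjusted p = 0.00059). The jun probe sets differed by -2.34 ± 0.40 and -2.97 ± 0.61 (adjusted p = 0.00016 and 0.00089), and the fosab probe sets Dr.12986.1.A1_a_at, Dr.12986.1.A1_at and Dr.12986.2.S1_at by -2.78, -2.58 and -3.32 (adjusted p = 0.0019, 0.0099 and 0.011). All 7 calls at 3 dpa remained when each array was left out in turn, larval 3 dpa replicate 3 included. With log2(value + 0.25) the difference of Dr.12986.1.A1_at was -1.56 and no longer called (adjusted p = 0.06). Adult minus larval at 3 dpa, 21 of 26 skeletal muscle probe sets were called higher and 0 lower (median 4.69). Of 10 erythrocyte probe sets 7 were called higher and 0 lower (median 1.85). The part of these markers in the member differences was not tested.

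The difference was not called for fosl2. It was 0.30 ± 0.55, 0.00 ± 0.42 and 0.29 ± 0.33 at 1 dpa and 0.27 ± 0.55, -0.04 ± 0.42 and -0.29 ± 0.33 at 3 dpa for Dr.10130.1.S1_at, Dr.10130.2.A1_at and Dr.10410.1.A1_at, and signs turned under several alternatives. At 3 dpa fosl1b differed by 0.40 ± 0.30 (adjusted p = 0.3).

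**Figure D3:**
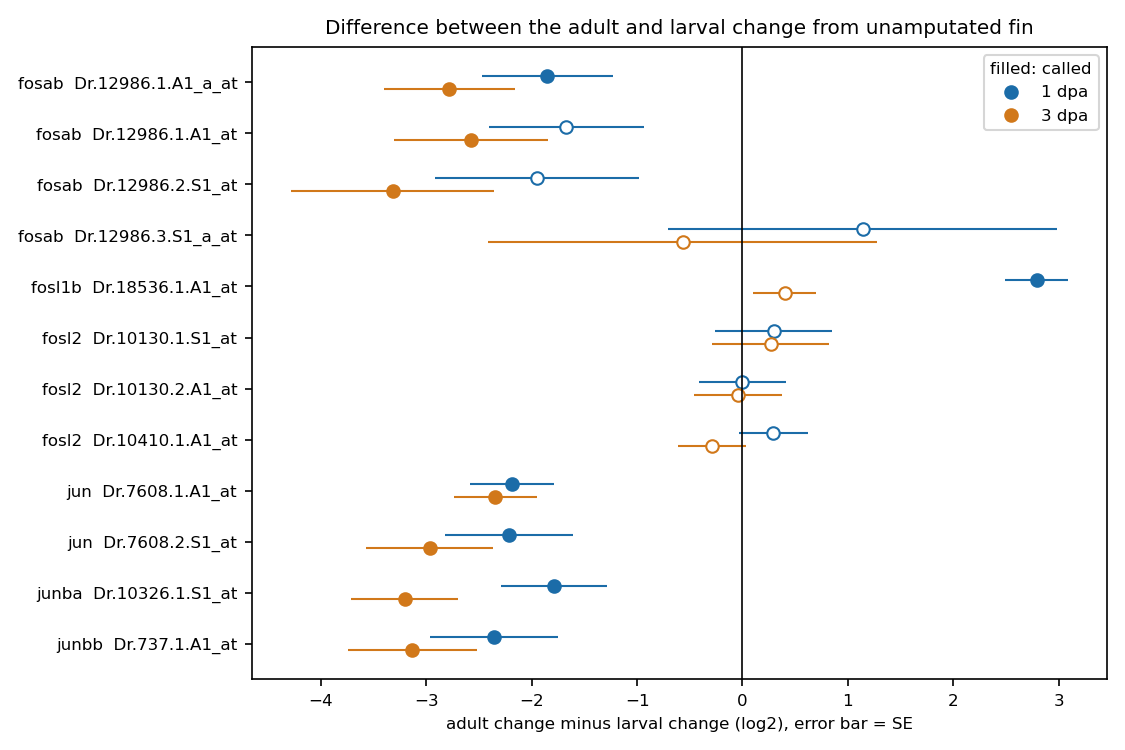
Adult change minus larval change (log2, horizontal axis) of each member probe set at 1 and 3 dpa, with standard errors; filled points are calls. At 3 dpa the probe sets of jun, junba, junbb and 3 of the 4 of fosab lie between -3.32 and -2.34, the 3 of fosl2 lie near 0, and fosl1b at 1 dpa lies at 2.79.

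The order of the group means differed by gene. For the fosab probe sets Dr.12986.1.A1_a_at, Dr.12986.1.A1_at and Dr.12986.2.S1_at, all 4 adult groups stood above all 4 larval groups. There unamputated adult fin was first and unamputated larval fin last, and the adult groups overlapped their neighbours in that order. All 4 adult groups also stood above all 4 larval groups for Dr.12986.3.S1_a_at of fosab, fosl1b, Dr.10130.1.S1_at of fosl2, Dr.7608.2.S1_at of jun, junba and junbb. They did not for Dr.10130.2.A1_at and Dr.10410.1.A1_at of fosl2 or Dr.7608.1.A1_at of jun. Arrays of the lowest adult group overlapped those of larval 2 dpa for Dr.12986.3.S1_a_at, Dr.10130.1.S1_at, Dr.7608.2.S1_at and junbb. They lay apart from the next larval group for fosl1b and junba. Unamputated adult fin was also first for jun and junbb, and adult 1 dpa for junba, fosl1b, Dr.10130.1.S1_at and Dr.10130.2.A1_at. Adult 3 dpa was first for Dr.10410.1.A1_at and adult 5 dpa for Dr.12986.3.S1_a_at. Unamputated larval fin was last for 11 of the 12 probe sets, the exception being fosl1b, where larval 2 dpa was last at a geometric mean of 0.720, overlapping unamputated larval fin at 0.723. For junba the geometric mean ratio was 3.30 in unamputated adult fin and 0.0857 in unamputated larval fin, a span set between kits and RNA inputs as well as ages.

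Genes related to AP-1 were described from 5 lists, beside the shares of all probe sets called. Those shares were 8.68% higher and 7.4% lower at adult 1 dpa, 8.1% and 6.19% at adult 3 dpa and 7.01% and 4.46% at adult 5 dpa. In larvae they were 2.43% higher and 1.58% lower at 1 dpa, 6.23% and 6.32% at 2 dpa and 5.08% and 5.51% at 3 dpa.

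Of 14 probe sets for other leucine zipper partners, 2 were called higher and 1 lower at adult 1 dpa, 0 and 3 at adult 3 dpa and 0 and 0 at adult 5 dpa. In larvae the counts were 1 and 0, 3 and 1, and 2 and 0 at 1, 2 and 3 dpa. With 14 probe sets 1 call is 7.14% of the list, so its shares rest on few probe sets. With all arrays, jdp2b and atf3 of that list were called lower in adults and higher in larvae. The reverse held for cremb, which rose by 1.26 ± 0.42 at adult 1 dpa and fell by 1.35 ± 0.21 at larval 2 dpa (limma adjusted p = 0.032 and 0.00061).

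The AP-1 repressor gene jdp2b fell by 2.45 ± 0.61 at adult 1 dpa (limma adjusted p = 0.0093) and rose by 1.69 ± 0.25 at larval 2 dpa (adjusted p = 0.00041), and its difference at 3 dpa was -2.95 ± 0.68 (adjusted p = 0.0024). The stress response gene atf3 fell by 1.25 ± 0.40 at adult 3 dpa and rose by 1.24 ± 0.39 at larval 2 dpa (adjusted p = 0.028 and 0.032). Its adult call was lost without adult unamputated replicate 2. So were the other calls of the list at adult 3 dpa, that of atf4a (-1.08 ± 0.24) among them: 0 of the 3 remained. The bZIP gene mafbb, known for its role in macrophage differentiation, rose by 1.08 ± 0.26 at adult 1 dpa and by 3.14 ± 0.38 at larval 1 dpa.

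Of 50 probe sets for other early response genes, 6 were called higher and 6 lower at adult 1 dpa, 4 and 4 at adult 3 dpa and 5 and 1 at adult 5 dpa. In larvae 5 were called higher and 1 lower at 1 dpa, 20 and 2 at 2 dpa and 17 and 2 at 3 dpa. The adult counts lay near the shares of all probe sets (12% higher and 12% lower of the list against 8.68% and 7.4% at 1 dpa, and 8% and 8% against 8.1% and 6.19% at 3 dpa). In larvae 40.0% of the list was higher at 2 dpa, against 6.23% of all, and 34% at 3 dpa, against 5.08% of all. The list's median at larval 2 dpa was 0.62, against -0.02 over all probe sets. The cytokine signalling inhibitor socs3a changed by -0.71 ± 0.48 at adult 3 dpa (adjusted p = 0.25), not called, and rose by 3.16 ± 0.29 at larval 3 dpa (adjusted p = 2.3e-05), while klf2a, a Krüppel-like factor, rose by 1.96 ± 0.44 and 2.96 ± 0.29. The growth arrest gene gadd45aa fell by 1.73 ± 0.52 at adult 3 dpa (adjusted p = 0.023) and rose by 1.58 ± 0.23 at larval 3 dpa (adjusted p = 0.00051).

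Of 32 MAP kinase cascade probe sets, 3 were called higher and 2 lower at adult 1 dpa, 2 and 2 at adult 3 dpa and 3 and 3 at adult 5 dpa, and in larvae 0 and 1, 3 and 0, and 1 and 0 at 1, 2 and 3 dpa. At adult 1 dpa that was 9.38% higher and 6.25% lower, near the 8.68% and 7.4% of all probe sets. Of 18 probe sets for feedback phosphatases and Sprouty genes, 0 were called higher and 1 lower at adult 1 dpa, 0 and 2 at adult 3 dpa and 1 and 0 at adult 5 dpa, and in larvae 0, 2 and 2 were called higher and 0 lower at the 3 days. The phosphatase gene dusp1, which switches MAP kinases off, fell by 1.88 ± 0.60 at adult 1 dpa (limma adjusted p = 0.026) and rose by 3.15 ± 0.30 at larval 2 dpa (adjusted p = 2.6e-05). Its adult minus larval difference was -2.58 ± 0.70 at 1 dpa and -4.05 ± 0.70 at 3 dpa (adjusted p = 0.0092 and 0.00019).

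Of 37 probe sets for genes known as AP-1 targets, 11 were called higher and 4 lower at adult 1 dpa, 8 and 4 at adult 3 dpa and 10 and 4 at adult 5 dpa. In larvae the counts were 2 and 1, 7 and 8, and 4 and 7 at 1, 2 and 3 dpa. At adult 1 dpa 29.7% of the list was higher, against 8.68% of all, and at larval 2 dpa 18.9% was higher and 21.6% lower, against 6.23% and 6.32% of all. The collagenase gene mmp13a rose by 4.05 ± 0.57 at adult 5 dpa and the matrix gene tncb by 5.14 ± 0.95 at adult 3 dpa. The fibronectin gene fn1b rose by 3.20 ± 0.18 at adult 1 dpa and by 2.30 ± 0.24 at larval 1 dpa. In the other direction, plaua fell by 2.40 ± 0.36 at adult 3 dpa, ccnd1 by 1.65 ± 0.17 at adult 1 dpa and hbegfb by 1.22 ± 0.32 at adult 5 dpa. At larval 2 dpa the filament gene vim fell by 4.59 ± 0.47, hmga1a by 2.08 ± 0.18 and fn1a, the other fibronectin gene of the list, by 1.78 ± 0.14.

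**Figure D4:**
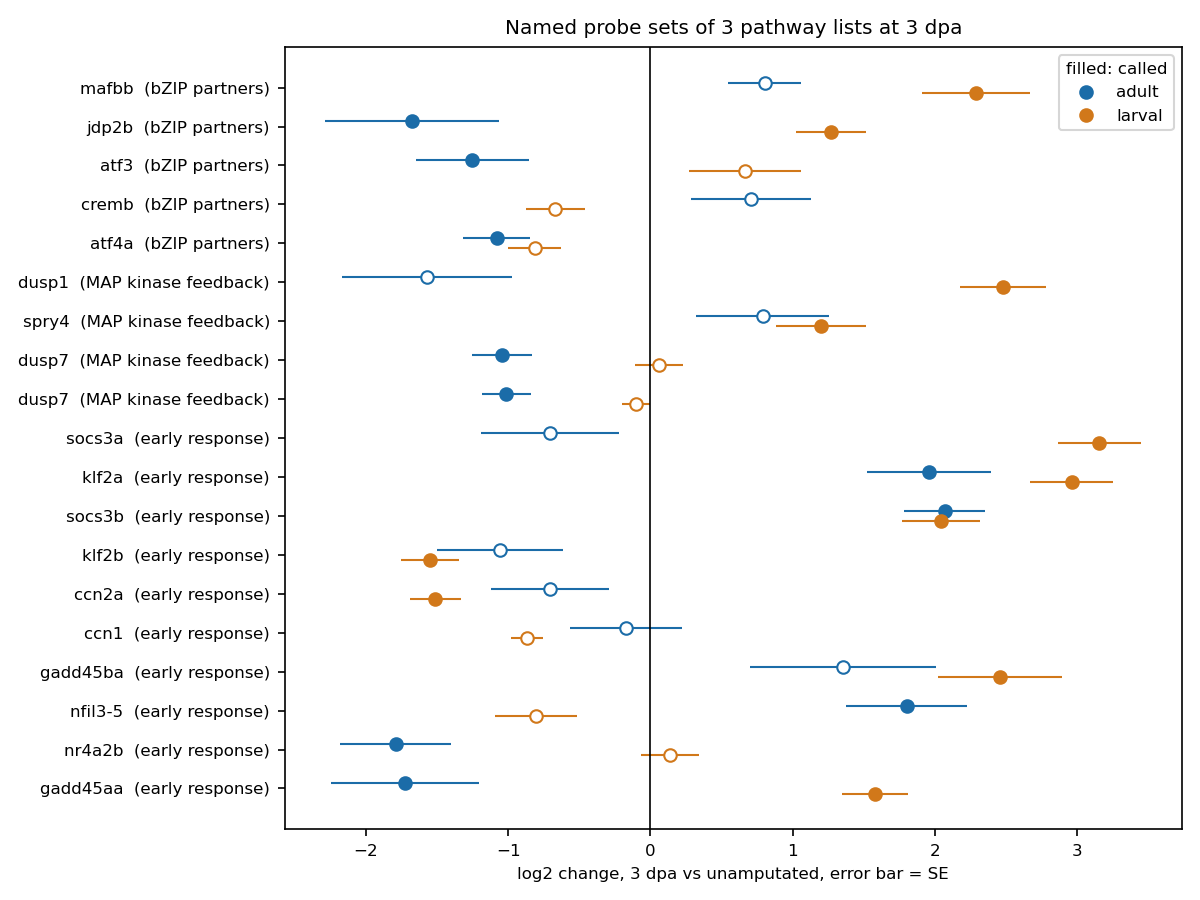
Log2 change at 3 dpa against unamputated fin (horizontal axis) for named probe sets of the leucine zipper partner, MAP kinase feedback and early response lists, adult and larval, with standard errors; filled points are calls. jdp2b lies at -1.68 in adults and 1.27 in larvae, and gadd45aa at -1.73 in adults and 1.58 in larvae. Without adult unamputated replicate 2, 0 probe sets of the leucine zipper partner list were called at adult 3 dpa.

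Arrays of 1 group differed in the members together. Over the 24 arrays, which share their normalization, deviations from the group mean correlated at r = 0.66 to 0.82 between fosab and junbb, 0.38 to 0.79 between fosab and jun, 0.72 between junba and junbb and 0.59 to 0.67 between fosl2 and junba. Between fosab and fosl2 r was 0.09 to 0.38, and between fosl1b and the other 11 probe sets -0.21 to 0.06. The low larval 3 dpa replicate 3, adult 1 dpa replicate e and adult unamputated replicate 3 were also low for the early response list, with 36, 41 and 35 of its 50 probe sets below the group mean (median -0.22, -0.61 and -0.22). Adult 5 dpa replicate a and adult 3 dpa replicate b had 10 and 9 of the 11 members other than fosl1b below, and 40 and 34 of the 50. Larval unamputated replicate 2 and larval 2 dpa replicate 3 each had 10 of those 11 below, with 29 and 22 of the 50.

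**Figure D5:**
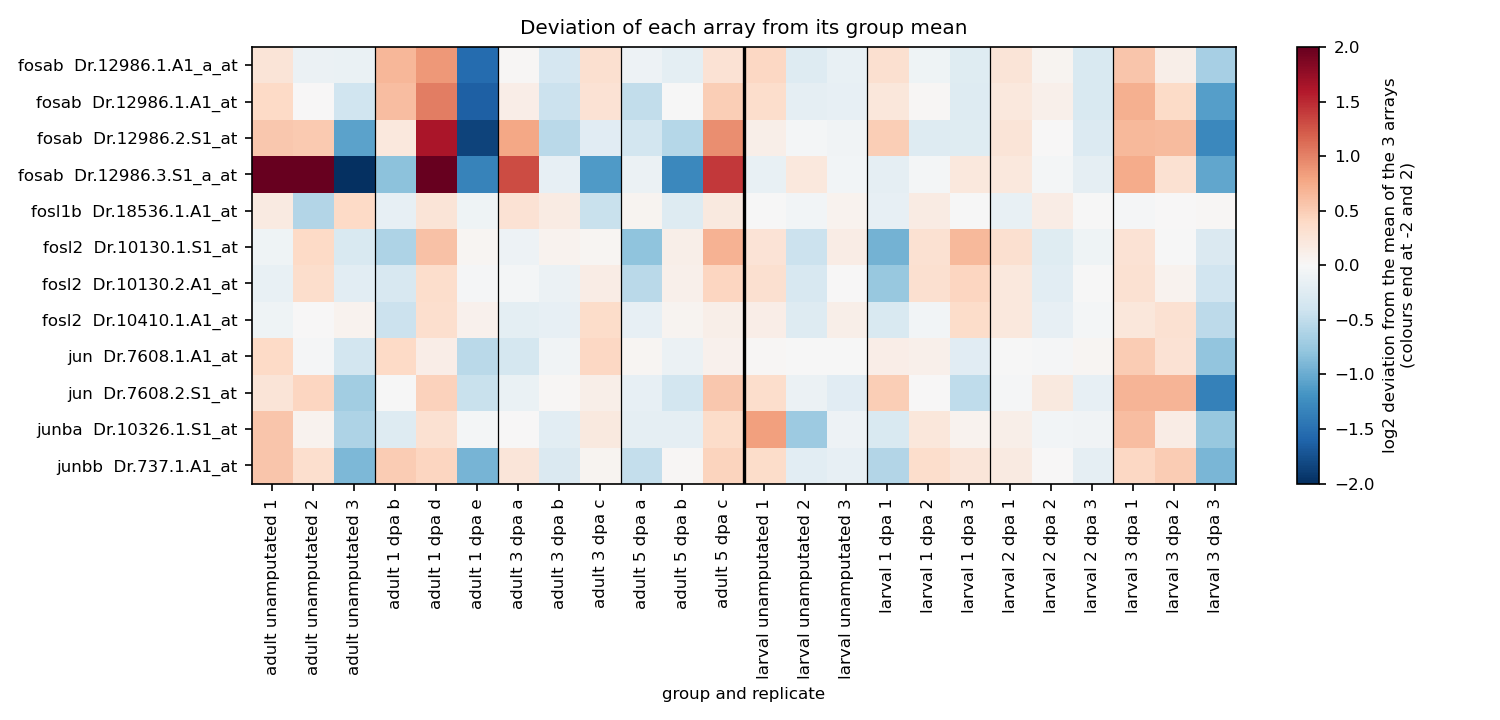
Deviation of each array (columns, by group and replicate) from the mean of its group for each member probe set (rows), on the log2 scale, with colours ending at -2 and 2. Blue columns at larval 3 dpa replicate 3, adult 1 dpa replicate e and adult unamputated replicate 3 cross fosab, jun and junbb, while the fosl1b row stays pale.

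Other genes followed the members closely. Over the 12 adult arrays the probe sets most like fosl1b were bhlha9 (r = 0.96), hp (r = 0.91) and wars1 (r = 0.90), among 660 whose adult group means spanned at least 2 on the log2 scale. Over the 12 larval arrays those most like junba were socs3a (r = 0.99), ms4a17a.11 (r = 0.97) and cygb1 (r = 0.97), among 479. Over the 8 group means, between which age and kit also differ, arg2 followed Dr.12986.2.S1_at of fosab at r = 0.997 and slc48a1b followed junba at r = 0.99, among 2520.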

How the data were processed

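Total RNA of 24 fin samples was measured on Affymetrix arrays. The submitters' processing notes name GCRMA for the step from scanned arrays to expression values. What the authors deposited is a ratio per probe set and array, with 1 array of each member at exactly 1, and the denominator is not given in the sources used here. No scanner intensities were used, and the number of arrays limits the precision. Of 15617 probe sets, 115 controls were set aside and 15502 were tested, of which 10795 carry 1 symbol, 135 several and 4572 none. Symbols come from GEO's platform annotation, updated through RefSeq.

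Groups follow the sample titles, and for the 15 later arrays the age comes from their descriptions. The description of unamputated adult fin names other sampling days than the adult titles do, and the source names of the 6 unamputated and 1 dpa larval arrays all say replicate 1. The titles were followed. Log2 ratios were fitted in limma 3.58.1 (R 4.3.3) with lmFit and eBayes and no pseudocount, over the 12 arrays of an age, or over all 24 for the difference between ages. Benjamini-Hochberg adjustment ran over all probe sets tested. The fit was tested on simulated data.

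All probe sets named fos or jun are reported. Named genes of the related lists come from the 3 called probe sets with the largest rise and the 3 with the largest fall per list and age, and likeness is the highest Pearson r. Members and lists were chosen with earlier results of these data known. Larval replicate numbers did not pair samples (r of same-numbered deviations -0.04 to 0.20). The letters shared by adult 3 and 5 dpa gave r = 0.16 to 0.43, over 0.1 in every pair. The reported fits hold no pairing. A replicate block was fitted only as an alternative, for the larval comparisons and for adult 5 against 3 dpa. Alternatives were array centring, quantile normalization, a pseudocount of 0.25, a filter on low means, no minimum fold, robust moderation, only the groups compared, the replicate block and leaving out each array. The filter kept probe sets whose mean log2 ratio was at or above the median. Since ratios are relative to each probe set's own reference, neither that filter nor the pseudocount measures low signal.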

Additional observations from a re-analysis of the deposited data

Results flagged for a closer look

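The change after amputation differed between adult and larval fin, by limma's test of the difference over all 24 arrays, for 13 values of member probe sets. At 1 dpa the adult minus larval log2 difference was 2.79 for fosl1b, -2.19 and -2.21 for the jun probe sets Dr.7608.1.A1_at and Dr.7608.2.S1_at, -1.79 for junba, -2.36 for junbb and -1.85 for Dr.12986.1.A1_a_at of fosab. At 3 dpa it was -2.34 and -2.97 for the same jun probe sets, -3.21 for junba, -3.13 for junbb, and -2.78, -2.58 and -3.32 for Dr.12986.1.A1_a_at, Dr.12986.1.A1_at and Dr.12986.2.S1_at of fosab. Age, labelling kit and RNA input change together between the 2 sets of arrays and cannot be told apart. The vehicle stated for regenerating fish also differs between the ages at both days, and it cannot be told apart from age either. The larval changes also hold the age gained after amputation. The larval fosl1b values do not tell a steady level from a level too low to be measured.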

How the results depend on the processing

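Counts of member probe sets called moved by more than 1.5 times under few alternatives. At larval 1 dpa the 6 calls became 3 with quantile normalization and 2 with log2(value + 0.25). The 8 calls of larval 2 against 1 dpa became 5 with the pseudocount and 5 with the filter on low means, which tests 9 of the 12 members. That filter gave 3 calls at adult 1 dpa, 3 at adult 3 dpa and 1 at adult 5 dpa. Quantile normalization gave 4 calls at adult 5 dpa and 3 for the difference at 1 dpa. With 1 array left out the counts ran from 5 to 6 for larval 2 against 1 dpa and from 1 to 3 for adult 5 dpa, with 1 call without adult unamputated replicate 1 or adult 5 dpa replicate b.

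With the replicate block the member counts were 6, 11 and 11 at larval 1, 2 and 3 dpa, 8 for larval 2 against 1 dpa, and 0 for larval 3 against 2 dpa and adult 5 against 3 dpa, so it changed no count of members. Over all probe sets it gave 1 call for adult 5 against 3 dpa, where the fit of all adult arrays gave 8, but a fit of only those groups without the block also gave 1.

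Signs turned for 48 values, none of them called in the reported comparison: 9 under quantile normalization, 2 after centring, 3 with the pseudocount and 34 with 1 array left out. Quantile normalization gave -0.12, -1.22 and -0.79 for fosab and -0.18 for jun at larval 1 dpa, 0.0066 for fosab at adult 3 dpa, 0.094 for fosab at adult 3 against 1 dpa, and 0.23 for fosab, -0.16 and -0.14 for fosl2 in the difference at 1 dpa. For fosl2, centring gave 0.13 and 0.10 and the pseudocount 0.34, 0.26 and 0.17 in the differences at 1 and 3 dpa.

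With 1 array left out, values that crossed 0 ran, at larval 1 dpa, from -0.099 to 0.27 and from -0.029 to 0.18 for fosab, at larval 2 dpa from -0.082 to 0.065 for fosl1b, and at larval 2 against 1 dpa from -0.42 to 0.38 and -0.23 to 0.36 for fosl2. At adult 1 dpa they ran for fosab from -1.12 to 2.41, -1.04 to 0.17 and -1.23 to 0.10, at adult 3 dpa from -1.31 to 2.22 for fosab and -0.53 to 0.055 for junba, and at adult 5 dpa from -0.47 to 3.06 for fosab. At adult 3 against 1 dpa they ran from -0.86 to 0.88, -0.44 to 0.77, -0.36 to 0.97 and -0.52 to 1.23 for fosab and from -0.042 to 0.34 for fosl2. In the differences they ran from -0.38 to 0.22, -0.18 to 0.62 and -0.23 to 0.13 for fosl2, and from -1.19 to 2.33 and -2.90 to 0.62 for fosab. The cause was not tested.

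Over all probe sets, 46 counts of calls moved by more than 1.5 times and 128 did not, and over the related lists 96 and 309. The 622, 1945 and 1641 calls at larval 1, 2 and 3 dpa ranged over 324 to 2097, 1105 to 4899 and 956 to 4371. The 2492, 2215 and 1778 at adult 1, 3 and 5 dpa ranged over 1456 to 7160, 1190 to 6783 and 981 to 5321, and the 2779 and 3425 of the differences at 1 and 3 dpa over 1603 to 4816 and 1942 to 6126. In the steps, 1385 calls for larval 2 against 1 dpa ranged over 787 to 3629, 46 for larval 3 against 2 dpa over 2 to 122, 385 for adult 3 against 1 dpa over 139 to 696 and 8 for adult 5 against 3 dpa over 1 to 17. Signal over background is not known from the ratios, so how far low signal limits these values was not tested.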
